A study of Mus musculus with 4 samples.

Results

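A set of 8 genes around Wnt secretion and the beta-catenin pathway were followed in mouse Th2 cells that had been grown with SH-2251 or without it. SH-2251 is a small molecule with activity against interleukin-5. They were Wls, Tcf7, Lef1, Ctnnb1, Axin2, Apc, Gsk3b and Bach2. The list was put together by name, and it was chosen by measured values in part, because the Wls signal was high in SH-2251-treated cells on these same arrays. The SH-2251 differences of Wls are therefore given as a description. The 8 genes were read by 15 of the 27198 probes that could be named, among 18539 genes in all.

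All 4 samples were primary CD4 T cells from the spleens of female C57BL/6J mice, stimulated for 2 days with plate-bound anti-TCR-β (3 µg/ml) and anti-CD28 (1 µg/ml) in IL-4 (10 ng/ml) with IL-2 (2.5 ng/ml), and then kept in the same cytokines for 3 more days. The 4 conditions were control cells at rest, SH-2251-treated cells at rest, control cells restimulated for 4 h with plate-bound anti-TCR-β, and SH-2251-treated cells restimulated in the same way. According to the labels SH-2251 was at 1 µM in the first phase and at 1 mM in the second, whereas the methods of the study give a lower default dose and start from naïve cells with an antibody against interferon-γ, so the dose and the starting cells are uncertain. Each condition was read on 1 array and no number of animals is given, so no difference below has a replicate check, an SD between cultures or a p-value.

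Wnt proteins are secreted lipid-modified signals. They are acylated in the endoplasmic reticulum by Porcn, carried to the cell surface by the membrane protein Wls, and bound by Frizzled receptors and Lrp co-receptors. Without a Wnt signal, a complex built on Axin and Apc lets Gsk3 phosphorylate beta-catenin (Ctnnb1), which is then destroyed. With a signal, beta-catenin accumulates and joins the DNA-binding factors Tcf7 and Lef1, and Axin2 is a widely used target gene of the pathway. In T cells Tcf7 and Lef1 are best known for thymic development and for naïve and memory cells, and Bach2 is a repressor that restrains effector differentiation.

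Signals are given as the log2 of the processed intensity minus the 75th percentile of the array, so a value of 0 is the level of that percentile. A difference carries a technical SD taken from the error estimate of the scanner software, which covers error within an array and not the spread between cultures. A gene was counted as higher or lower when 2 arrays differed at least 2-fold. On all 4 arrays 14 of the 15 probes read well above background, and the remaining probe, for Apc, did so on none.

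The bases before the start of transcription are shown for Wls, the gene with the largest difference of the 8, and for Axin2, the pathway's own target gene. The windows come from RefSeq on build GRCm38.p6 and hold the 250 bases before the start, both on the plus strand, at chr3:159839400-159839649 for Wls and chr11:108920099-108920348 for Axin2. Capitals mark CTTTG, the core of the sequence that Tcf7 and Lef1 recognise, read on either strand.
Wls: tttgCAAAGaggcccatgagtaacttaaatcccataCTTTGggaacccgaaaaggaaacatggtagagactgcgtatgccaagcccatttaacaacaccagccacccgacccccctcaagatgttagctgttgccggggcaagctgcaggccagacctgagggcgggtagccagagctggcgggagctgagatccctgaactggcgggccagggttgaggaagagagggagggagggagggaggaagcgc
Axin2: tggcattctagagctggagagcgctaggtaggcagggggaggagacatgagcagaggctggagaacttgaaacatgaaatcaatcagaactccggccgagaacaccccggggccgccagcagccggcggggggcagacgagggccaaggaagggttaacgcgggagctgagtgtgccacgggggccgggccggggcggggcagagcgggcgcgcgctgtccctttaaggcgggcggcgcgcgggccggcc
The Wls window held CTTTG at 2 places, beginning 246 bases (opposite strand) and 214 bases (same strand) before the start, and the Axin2 window held none. Of all 32851 RefSeq windows of this length 48.6% held the core on either strand, so the match in Wls is a common one. The longer forms CTTTGAA or CTTTGAT, which contain the core, were in 7.48% of all windows and in 0 of the 12 windows of the 7 genes that had one. TGACTCA, read by AP-1 and Bach factors, was in 4.46% of all windows and AAATCAC, read by Gfi1, in 2.75%, and neither was in any of those 12. The core was found in windows of Bach2, Gsk3b, Lef1 and Wls. These are matches of letters in a short window and no binding was measured here.

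The identity of the cells was checked first. All 13 T cell and Th2 cell genes on the list that had a probe were well above background on every array, among them Cd3d, Gata3 and Il4. Il5, the interleukin-5 gene, had a log2 difference of SH-2251 minus control of -3.86 at rest and of -3.01 after restimulation. Some markers of other cells were detected too. Well above background on all 4 arrays were 9 of 11 B cell genes, 4 of 9 myeloid genes, 4 of 7 stromal and endothelial genes, 3 of 6 CD8 T and NK cell genes and 2 of 4 red cell genes. Of the defining markers in these lists, Pax5 and Ebf1 of B cells, Lyz2 and Itgam of myeloid cells, Ncr1 of NK cells and Cdh5 of endothelium were not well above background on any array. The share of probes well above background ran from 56.0% to 56.7% over the arrays.

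Wls, the carrier of Wnt proteins, stood out among the 8 genes. Its log2 signal was -2.36 in control cells at rest and 1.70 in SH-2251-treated cells at rest, and it was -2.31 in restimulated control cells and 2.13 in restimulated treated cells. Both treated arrays were far above both control arrays. The difference was 4.06 (technical SD 0.213), or 16.7-fold, at rest and 4.44 (technical SD 0.213), or 21.7-fold, after restimulation. It was at rank 2 from the top of 11874 genes measured on both resting arrays and of 11812 measured on both restimulated arrays. The restimulation differences of Wls were 0.05 in control cells and 0.43 in treated cells, with technical SDs of 0.222 and 0.204. With a background correction by the normexp model the 2 SH-2251 differences were 3.19 and 3.71. A single probe reads Wls here.

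Markers of other cells were set beside this value. The summed log2 level of 7 stromal and endothelial genes was 1.43 and 1.22 in the control cells and 0.85 and 0.95 in the treated cells, a sum set largely by Pecam1, with SH-2251 differences of -1.02 and -0.48. Of the genes of this list that could be compared, 2 of 4 were above 0 with SH-2251 at rest and 3 of 5 after restimulation, with medians of 0.18 and 0.07. Col1a2, a collagen gene, differed by 0.92 and 0.80 and Pdgfrb, a receptor of mesenchymal cells, by 0.75 and 1.11, the same direction as Wls. Col1a1, another collagen gene, went the other way, at -0.40 and -0.61, as did Pecam1. The summed log2 level of 6 CD8 T and NK cell genes was 1.17 and 2.34 in control cells and 1.08 and 2.13 in treated cells, a sum set largely by Nkg7. Of the 3 genes of that list compared, 1 was above 0 with SH-2251 and 2 below in each state, with medians of -0.07 and -0.26. Cd8a was higher, by 1.45 at rest and 0.97 after restimulation, and its other probes gave 0.15 to 1.15 and 0.31 to 0.97. Nkg7 differed by -0.07 and -0.26 and Prf1 by -0.86 and -0.29. The part of other cells in the Wls signal was not tested, and in cultured populations more cells of a type and more RNA per cell cannot be told apart.

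**Figure D1:**
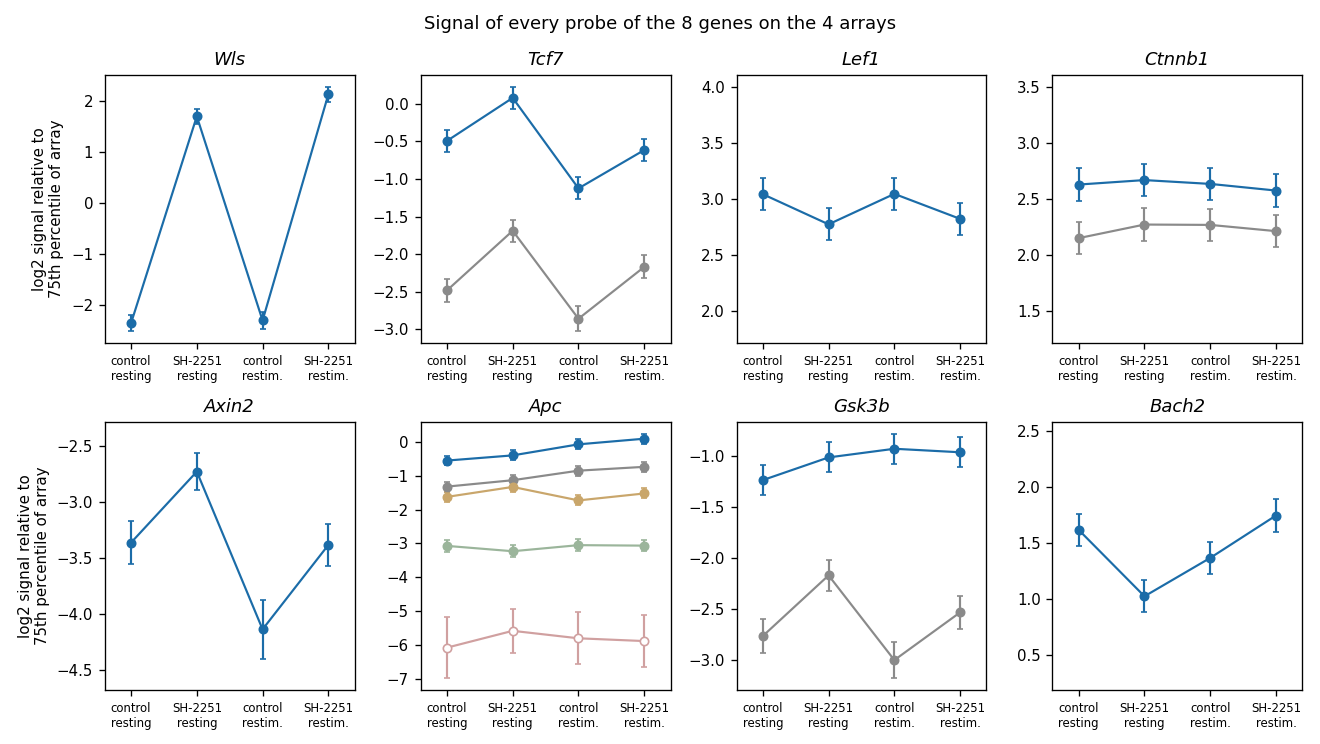
Log2 signal, with each array's 75th percentile set to 0 (y axis), of every probe of the 8 genes on the 4 arrays (x axis). The probe used for the gene is blue and other probes are grey or pale, open circles are not well above background, bars are the technical SD and the scale differs between panels. Wls runs from -2.36 and -2.31 in control cells to 1.70 and 2.13 with SH-2251, whereas Ctnnb1 stays between 2.57 and 2.67.

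The other 7 genes were compared with the same threshold. At rest 1 of the 8 genes was at least 2-fold higher with SH-2251 and 0 were lower, against 2.22% of all 12683 genes compared that were higher and 2.9% that were lower, 5.12% together. After restimulation the counts were again 1 and 0, against 2.65% and 2.78%, or 5.43% together, of 12622 genes. The gene was Wls both times, and since its value helped to choose the list nothing is read from these counts. The median SH-2251 difference of the 8 genes was 0.19 at rest and 0.27 after restimulation, where all genes had medians of -0.06 and -0.06. Restimulation moved 0 of the 8 genes at least 2-fold in control cells or in treated cells. Of all genes, 7.2% were higher and 7.34% lower with restimulation in control cells, and 7.09% were higher and 6.98% lower in treated cells.

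Tcf7, which encodes the T cell factor TCF-1, had a log2 signal of -0.49 and 0.08 in control and treated cells at rest and of -1.12 and -0.61 after restimulation. It was thus higher with SH-2251 by 0.57 (technical SD 0.205) and 0.51 (technical SD 0.207), and lower with restimulation, with differences of -0.63 in control cells and -0.69 in treated cells. A second Tcf7 probe gave the same directions, with SH-2251 differences of 0.79 and 0.69 and restimulation differences of -0.38 and -0.48. Each of the 8 differences exceeded its technical SD, and none reached 2-fold.

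Lef1, the partner of Tcf7 in the same family, went the other way with the compound. Its log2 signal was 3.04 in control cells in both states, 2.77 in treated cells at rest and 2.82 in treated cells after restimulation. The SH-2251 differences were -0.27 and -0.22, each with a technical SD of 0.204, so they were barely larger than the error within an array. The restimulation differences, 0.00 and 0.05, were smaller than it.

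Ctnnb1, which encodes beta-catenin, was level across the 4 conditions. Its log2 signal was 2.63 and 2.67 in control and treated cells at rest and 2.63 and 2.57 after restimulation. A second probe, printed 10 times on each array, read 2.15, 2.27, 2.27 and 2.21 in the same order, with an SD between spots of 0.039 to 0.052. Its SH-2251 differences were 0.12 and -0.06, and those of the first probe 0.04 and -0.06. The resting SH-2251 difference of the first probe was -0.18 with the normexp correction, but 0.06 with that correction made without spots of uneven background. RNA was measured here and the amount or place of the protein was not.

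Axin2, the feedback target of the pathway, was dim and had the same directions as Tcf7. Its log2 signal was -3.36 and -2.73 in control and treated cells at rest and -4.14 and -3.38 after restimulation. The SH-2251 differences were 0.63 (technical SD 0.256) and 0.75 (technical SD 0.325), and the restimulation differences were -0.77 in control cells and -0.66 in treated cells. Its processed intensity was 28 to 93 units, close to the background. With the normexp correction made without spots of uneven background, the SH-2251 differences were 0.25 and 0.10.

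Apc, the scaffold of the destruction complex, was higher after restimulation on the brightest probe. The log2 signal of that probe was -0.55 and -0.40 in control and treated cells at rest and -0.07 and 0.09 after restimulation, which gave restimulation differences of 0.48 and 0.49 and SH-2251 differences of 0.15 and 0.17. A probe printed 10 times gave restimulation differences of 0.47 and 0.40, with an SD between spots of 0.040 to 0.051. The other 2 probes above background did not show this, at -0.10 and -0.19 for one and at 0.02 and 0.17 for the other. With the mean of all Apc probes the restimulation differences were 0.23 and 0.11.

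Gsk3b, the kinase of the complex, had a log2 signal of -1.24 and -1.02 in control and treated cells at rest and of -0.93 and -0.97 after restimulation. Its SH-2251 differences were 0.22 and -0.03, and its restimulation differences 0.31 and 0.05. A second probe gave SH-2251 differences of 0.59 and 0.47 and restimulation differences of -0.24 and -0.36. The probes of Gsk3b disagreed, so no direction is given for the gene.

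**Figure D2:**
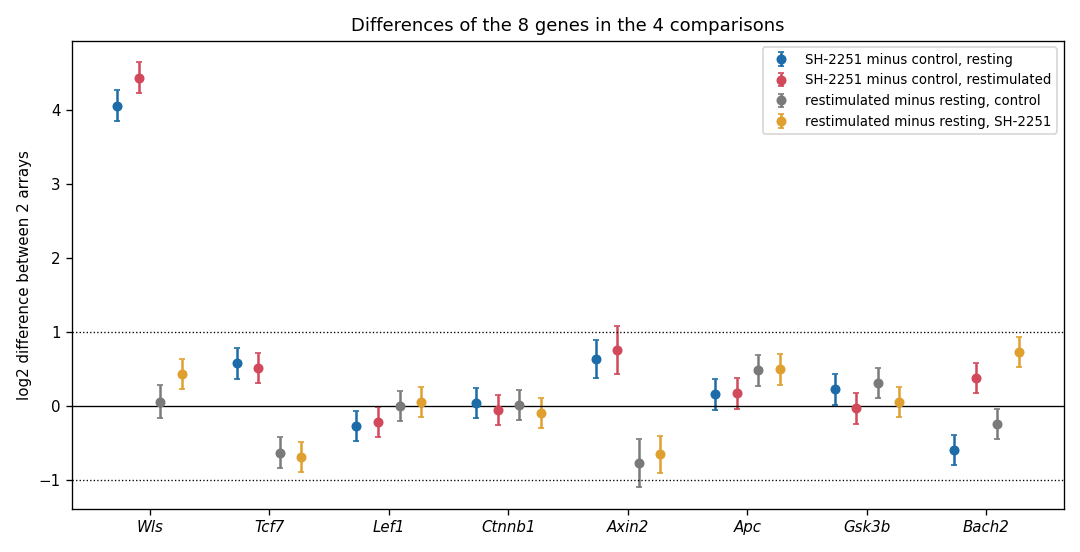
Log2 difference between 2 arrays (y axis) of the 8 genes (x axis) in the 4 comparisons, marked by colour, with bars for the technical SD and dotted lines at 2-fold. Wls lies at 4.06 and 4.44 with SH-2251, every other difference lies between the dotted lines, and the pair of SH-2251 values of Bach2 lies on opposite sides of 0.

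Bach2 had SH-2251 differences of opposite sign in the 2 states. Its log2 signal was 1.62 and 1.02 in control and treated cells at rest and 1.37 and 1.75 after restimulation. The difference of treated minus control cells was thus -0.59 at rest and 0.38 after restimulation, each with a technical SD of 0.204. Restimulation went with a difference of -0.25 in control cells and of 0.72 in treated cells. The SH-2251 difference was 0.97 (technical SD 0.289) higher in restimulated than in resting cells, just under 2-fold, and 1.22% of 11518 genes above background on all 4 arrays had such a change of at least 2-fold. For the other 7 genes the change lay between -0.26 and 0.38. A single probe reads Bach2 here.

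Bach2 is also a gene of B cells, so the B cell list was set beside it. Of 11 B cell genes 9 were above background on every array, and Pax5 and Ebf1 on none. Their summed log2 level was 5.46 and 5.27 in control and treated cells at rest and 5.17 and 5.63 after restimulation, a sum set largely by H2-Ab1, with SH-2251 differences of -0.51 and -0.06, and Cd74, with 0.39 and 1.19. This sum had the same directions as Bach2 in every comparison. Its genes were split with SH-2251 at rest, with 5 of the 9 compared above 0 and 4 below, and a median of 0.16. After restimulation 7 of 9 were above 0, with a median of 0.54. The part of B cells in the Bach2 values was not tested.

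The rest of the Wnt pathway was read through 111 further genes listed by role, of which 108 had a probe. Among these 59 were well above background on all 4 arrays, 18 on some and 31 on none. At rest 4 of 74 genes compared (5.41%) were at least 2-fold higher with SH-2251 and 1 (1.35%) lower, beside 2.22% and 2.9% of all genes. After restimulation 3 of 70 (4.29%) were higher and 2 (2.86%) lower, beside 2.65% and 2.78% of all genes. The median differences were -0.05 and 0.00, where those of all genes were -0.06 and -0.06.

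Few Wnt ligands were measurable, with 4 of 23 ligand and R-spondin genes above background on all arrays and 12 on none. Wnt6 was well above background only on the treated arrays, and its log2 signal was at least 2.27 higher with SH-2251 at rest and at least 1.08 higher after restimulation. Wnt10a was likewise above background only on the treated arrays, at least 0.77 and 0.84 higher. Wnt4 was above background only on the control arrays with bounds of -0.77 and -0.39 on its differences. Wnt9a differed by 0.85 at rest and by at least 0.53 after restimulation, and its restimulation difference in treated cells was -1.98.

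Of the genes that serve Wls, 0 of 5 were counted as 2-fold higher or lower in any of the 4 comparisons. Of all genes, 5.12% and 5.43% were so counted with SH-2251, and 14.5% and 14.1% with restimulation. Porcn, the enzyme that acylates Wnt proteins, was close to background, with a bound of -0.77 on its SH-2251 difference at rest and a difference of -0.17 after restimulation. Vps35, a subunit of the retromer that returns Wls from endosomes, had SH-2251 differences of 0.21 and 0.09, and Vps29 of -0.17 and 0.08. Snx3, a sorting nexin of that route, had differences of 0.10 and 0.01. For Porcn the bound gives only a least size, and the other 4 genes were measured on every array.

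Among receptors, Fzd7 was lower with SH-2251, at -0.93 at rest and -1.37 after restimulation. Rnf43, a ligase that removes Frizzled receptors from the surface, was higher by 0.56 and 1.11. Fzd4 was below background only in control cells at rest, at least 1.22 lower than in treated cells, and differed by -0.31 after restimulation. Lrp6, the co-receptor, had small differences of 0.20 and 0.13.

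Kremen2, a surface inhibitor that binds Dickkopf proteins, had the largest SH-2251 difference in size among these genes, with log2 signals of 2.38 and -0.89 in control and treated cells at rest and of 1.33 and -1.35 after restimulation. Its SH-2251 differences were -3.27 and -2.68. Of the secreted inhibitors, Dkk1, Dkk2, Dkk4, Sfrp4, Frzb, Wif1 and Notum were not above background on any array.

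Inside the cell all 16 relay and destruction complex genes were above background on every array. With SH-2251 0 of them differed 2-fold in either state, beside 5.12% of all genes at rest and 5.43% after restimulation. Tnks2, a tankyrase that marks Axin for destruction, was higher by 0.59 and 0.68, and Axin1 differed by -0.10 and -0.09. With restimulation Frat1 and Frat2, which bind Gsk3, were lower, Frat1 at -1.32 in control and -1.62 in treated cells and Frat2 at -1.91 and -1.73. Csnk1e, a casein kinase, was higher by 0.88 and 1.08.

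In the nucleus, 2 co-repressors of the Groucho family, which bind Tcf and Lef factors, were higher with SH-2251. Tle1 had log2 signals of -0.08 and 1.67 in control and treated cells at rest and of 0.68 and 1.95 after restimulation, differences of 1.75 and 1.27. Tle4 was higher by 1.06 and 0.92. The related Tle2, Tle3 and Tle5 had differences of -0.16, -0.47 and -0.40 at rest and of 0.23, 0.09 and -0.26 after restimulation. Tcf7l1, another family member beside Tcf7 and Lef1, was lower with restimulation, at -1.36 and -1.11 (-0.45 and -0.66 on its other probe), and Tcf7l2 differed by -0.34 and -0.10 with SH-2251. Chromatin factor Satb1 was bright and differed by -0.02 and 0.27 with SH-2251.

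Target genes other than Axin2 went in both directions with SH-2251. Myc had SH-2251 differences of -0.46 and -0.26, Nkd2 of -0.58 and -0.51, and Birc5 of -0.08 and -0.23, whereas Nkd1 differed by 0.43 and 0.11. Cd44, an adhesion receptor of activated T cells, was higher with restimulation by 1.61 in control and 2.06 in treated cells, and Nkd2 by 1.11 and 1.17. Birc5, a survival and mitosis gene, differed by -0.99 and -1.15. In all, restimulation went with 3 higher and 6 lower of 73 other Wnt pathway genes in control cells, beside 7.2% and 7.34% of all genes. In treated cells 4 were higher and 8 lower of 68, beside 7.09% and 6.98% of all genes.

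**Figure D3:**
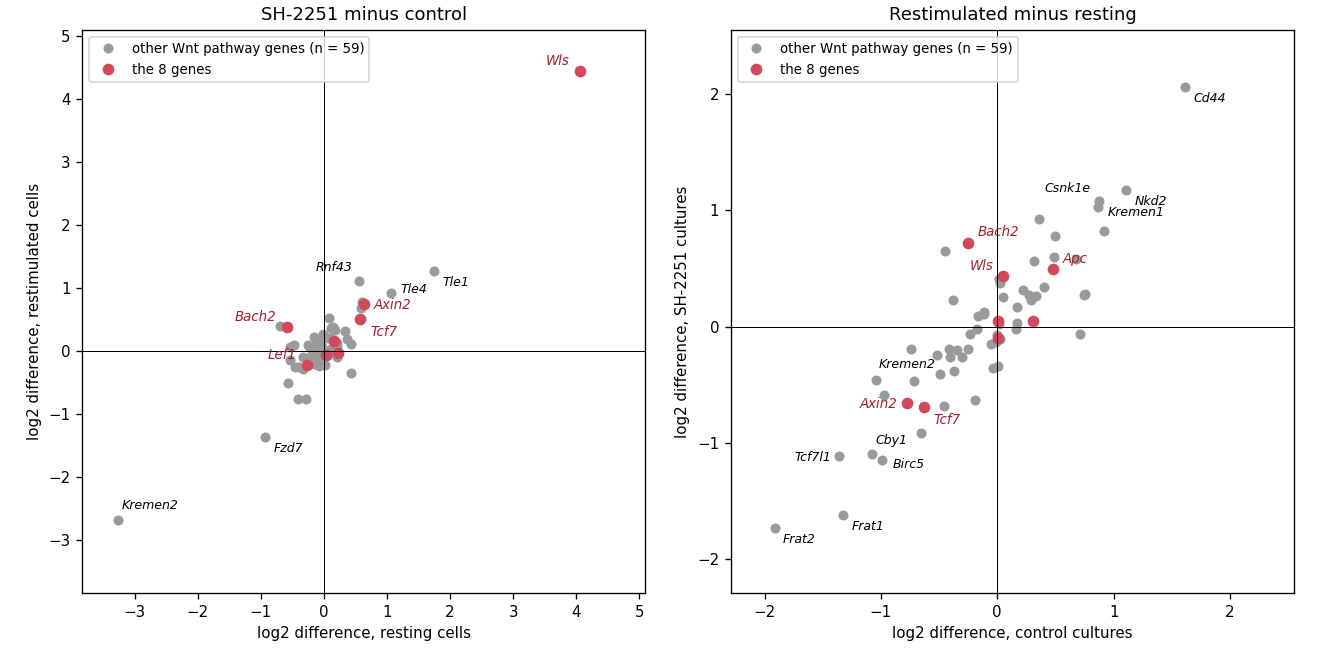
Log2 differences of the 8 genes (red) and of the 59 other Wnt pathway genes above background on all 4 arrays (grey), with SH-2251 minus control at rest against the same after restimulation (left), and restimulated minus resting in control against treated cultures (right). Wls lies at the upper right and Kremen2 at the lower left of the first panel, and in the second Tcf7 and Axin2 lie below 0 on both axes.

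Genes of naïve and memory T cells, where Tcf7 and Lef1 act, were compared as a list of 17. At rest 1 was at least 2-fold higher with SH-2251 and 0 lower, and after restimulation 3 were higher and 1 lower, beside 2.22% and 2.9% of all genes at rest and 2.65% and 2.78% after restimulation. The medians of the list were 0.09 and 0.22, where those of all genes were -0.06 and -0.06. Id3, an inhibitor of E proteins, had differences of 1.89 and 1.23. Foxp1, a quiescence factor, was higher by 0.97 and 1.01 and Dapl1 by 0.88 and 1.36, whereas S1pr1, the receptor for exit from lymph nodes, differed by -0.63 and -1.78.

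Other genes of the list went in both directions. Il7r, the receptor for interleukin-7, differed by 0.05 and -0.03 with SH-2251, and Ccr7, a homing receptor, by -0.49 and 0.20. With restimulation S1pr1 differed by -1.11 and -2.26 and Ccr7 by -1.33 and -0.63. Bcl6, the regulator of follicular helper T cells, was higher with restimulation by 2.80 in control and 2.02 in treated cells. The 2 probes of Klf2 disagreed on restimulation, at 0.26 and 0.17 against -2.31 and -2.08.

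The 9 partners and repressed targets of Bach2 were read in the same way. With SH-2251 1 of 9 was at least 2-fold higher and 0 lower in each state, with medians of 0.02 and 0.20 beside the same all-gene shares and medians. It was Gclm, a subunit of the enzyme for glutathione synthesis, higher by 1.12 and 1.15. Hmox1, the haem oxygenase gene that Bach factors repress, was higher by 0.81 and 0.83, and Prdm1, another repressed target, differed by -0.39 and -0.18. Batf, an AP-1 factor that competes at Bach2 sites, had SH-2251 differences of -0.74 at rest and 0.00 after restimulation.

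With restimulation 3 of the 9 were higher and 0 lower in control and in treated cells. Of all genes, 7.2% were higher and 7.34% lower in control cells, and 7.09% and 6.98% in treated cells. Maff, a small Maf protein that pairs with Bach factors, was higher by 2.66 and 3.24, and Hmox1 by 1.16 and 1.18. Bach1 was higher by 1.03 in control cells and 0.80 in treated cells, and Irf4 by 0.83 and 1.07. Bach2 itself differed by -0.25 and 0.72.

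**Figure D4:**
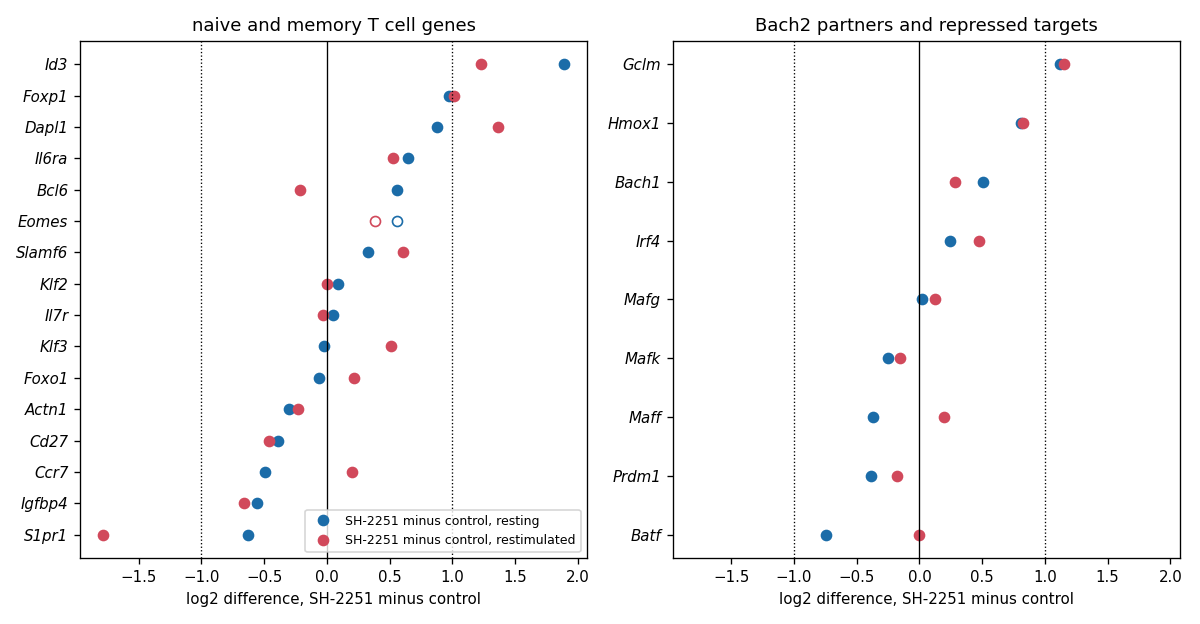
Log2 difference of SH-2251 minus control (x axis) for genes of naïve and memory T cells (left) and 9 partners and repressed targets of Bach2 (right), at rest (blue) and after restimulation (red), with dotted lines at 2-fold and open circles for bounds. Id3 lies at 1.89 and 1.23, S1pr1 at -0.63 and -1.78, and Gclm at 1.12 and 1.15.

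The genes with the pattern most like each of 4 members were taken from 11510 genes above background on all arrays, by the root mean square distance of the log2 signals after each gene's mean over the 4 arrays was taken away. For Wls they were Itgae, an integrin of epithelium-associated T cells, at a distance of 0.24, Slpi, a protease inhibitor, at 0.34, and Ifi211, an interferon-induced gene, at 0.87. Itgae had SH-2251 differences of 4.54 and 4.89 and Slpi of 3.74 and 4.22. Of all these genes 0 lay within 0.2 of Wls.

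For Tcf7 the nearest were Cnppd1, 4933439C10Rik and C1s1, with distances of 0.01 to 0.03, but 551 genes lay within 0.2. For Lef1, Zcchc3, Exoc8 and Selenow came first among 3925 genes within 0.2, so its flat pattern singles out few genes. Cldn15 and Vpreb1 were among the nearest to Bach2, at 0.03 and 0.06, with 244 genes within 0.2. A likeness over 4 arrays says nothing of shared control.

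**Figure D5:**
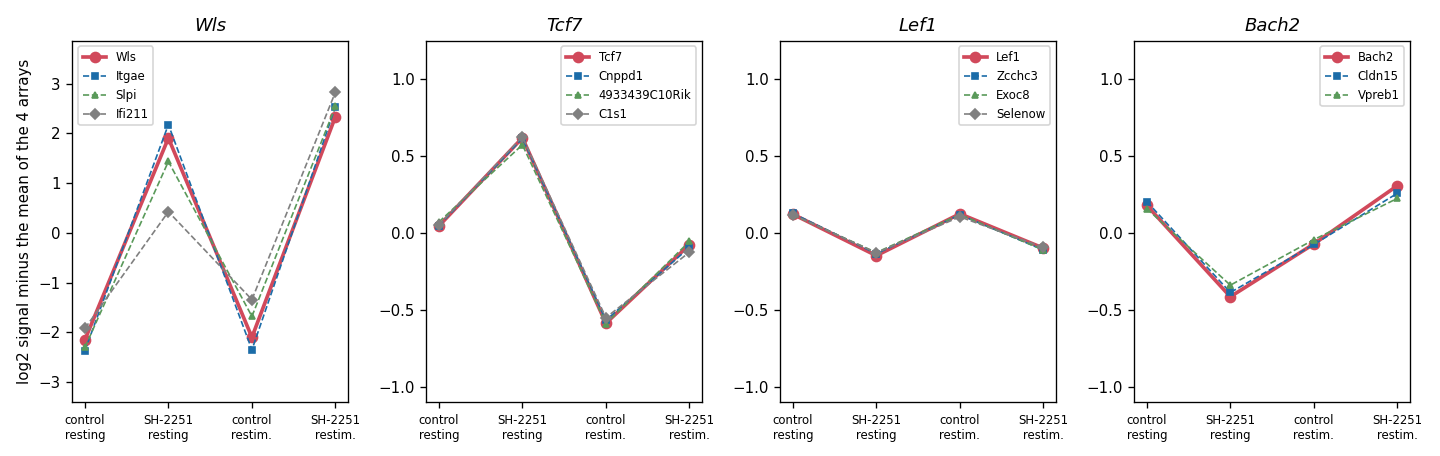
Log2 signal minus the gene's mean over the 4 arrays (y axis) on each array (x axis) for Wls, Tcf7, Lef1 and Bach2 (red) and genes nearest to each. Itgae and Slpi follow Wls across the arrays, and the lines for Lef1 stay within 0.2 of 0.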

How the data were processed

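RNA was labelled with 1 dye (500 ng per sample) and read on Agilent Whole Mouse Genome arrays, 1 per condition, on a single slide. The authors deposited scanner files from Feature Extraction version 10.7.3.1, whose processed intensity had been corrected for background by that software, and a table of log2 values normalized on the Subio Platform. The deposited log2 values lay within 0.01 of the scanner log2 intensity minus the 75th percentile of the array for at least 99.6% of probes.

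From the scanner files, control and outlier spots were left out, spots of a probe were averaged, and the 75th percentile was subtracted. Of 41174 probes, 27198 were named through RefSeq accessions (table of GRCm38.p6). The brightest probe stands for a gene. A gene was compared when 1 or both arrays read it well above background. Where only 1 did, the difference is a bound. The other array then takes the higher of its own signal and its lowest signal well above background. With 1 array per condition no test was run, and precision is limited by that number. The 2-fold comparison was tried on simulated data with technical error only. The background filter and the bounds were not part of that trial. The genes, the lists and the threshold of 2-fold were chosen with earlier results of these data known. All 8 genes are named, with listed genes past 2-fold or bright in their role. Some that meet this rule are not reported here or drawn, but stay in the counts. Python 3.11.15 and limma 3.58.1 (normexp) were used.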

Additional observations from a re-analysis of the deposited data

Results flagged for a closer look

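Bach2 differed in direction between the states. Its log2 difference of SH-2251 minus control was -0.59 at rest and 0.38 after restimulation, and its restimulated minus resting difference was -0.25 in control cells and 0.72 in treated cells. All 4 values rest on a single probe and on the same 4 arrays, 1 per condition. Whether they differ beyond the spread between cultures was not tested.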

How the results depend on the processing

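The SH-2251 differences of Wls remained at least 2-fold under every alternative of scaling and background. They lay between 3.19 and 4.12 at rest and between 3.71 and 4.48 after restimulation. The alternatives of filter and probe could not change them, because Wls has a single probe that was well above background on every array. Of 288 differences of the 8 genes under all these alternatives, 268 moved by less than the technical SD, 20 by more and 0 of a gene counted as changed turned sign. Many of the 268 could not move. The filters had no effect on genes above background on every array, and the deposited values repeat the main scaling. The mean of all probes could not move the single-probe genes Wls, Lef1, Axin2 and Bach2. Counting from 1.5-fold, 2 of the 8 genes were higher with SH-2251 at rest (Wls and Axin2), 1 lower (Bach2) and 2 higher after restimulation. Of all genes, 773 were higher and 945 lower of 12683 at rest, and 871 and 902 of 12622 after restimulation. With restimulation 2 of the 8 were lower in control cells and 2 in treated cells (Tcf7 and Axin2), and 1 was higher in treated cells (Bach2). Of all genes, 1914 were higher and 2366 lower of 12757 in control cells, and 1871 and 2385 of 12613 in treated cells. Under normexp 1 gene, Axin2, was at least 2-fold lower with restimulation in treated cells, at -1.08. The value was -0.44 under normexp without spots of uneven background. Over all genes, SH-2251 went with 282 higher and 368 lower at rest and 334 and 351 after restimulation; normexp gave 694 and 162, and 149 and 161. Its background estimate on the array of treated resting cells was set by 12 spots of uneven background, and without these it gave 122 and 196, and 149 and 159. With all probes compared at face value the counts were 623 and 798, and 678 and 950, and from 3-fold they were 101 and 142, and 102 and 144. Restimulation went with 918 higher and 937 lower genes in control and 894 and 881 in treated cells; 443 and 1512 were lower under normexp, 443 and 444 without those spots, and 1421 in treated cells at face value. For restimulation a threshold of 3-fold gave 379 higher and 194 lower in control and 396 and 145 in treated cells. The number of other Wnt genes higher with SH-2251 at rest ranged from 1 (normexp without those spots) to 10 (normexp, and 1.5-fold). The median of the other Wnt genes was 0.19 with SH-2251 at rest and -0.41 with restimulation in treated cells under normexp. Both use the array with those spots, and without them the resting median was -0.07, beside -0.05 in the main setting. No paired analysis was possible because each condition has 1 array, and no array could be left out for the same reason. Dim probes such as Axin2 limit what can be read.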
